A study of Mus musculus with 24 samples.

Results

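The genes described here are 10 members of the circadian clock, measured by mRNA sequencing in primary cortical astrocytes of the mouse. They are Arntl, Clock, Per1, Per2, Per3, Cry1, Cry2, Nr1d1, Nr1d2 and Dbp, and they were chosen by symbol from the 49315 genes that each count table lists. All 10 were found and all 10 passed the filter on low counts in every comparison. The cells were wild type C57BL/6J astrocytes of passage 1, grown from the cortices of late-gestation embryos, with the embryos of one pregnant mouse pooled. They were exposed to 0, 0.1 or 2 Gy of X-rays and harvested 6 h or 24 h later, with 4 biological repeats for each of the 6 conditions and 24 libraries in all. The cells at 0 Gy were mock-irradiated, that is, handled like the others with the X-ray source off. The study calls the 4 repeats biological, while the labels only number them, and new cells were isolated for each experiment of the study. Which isolation each library came from is not given, and p-values measure the spread between these libraries. The time of day at harvest is not given in the sources used here.

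The circadian clock is a feedback loop of transcription found in nearly all cells, astrocytes included. BMAL1, the protein of Arntl, and CLOCK pair up and switch on genes whose promoters hold E-boxes, among them the Per, Cry, Nr1d and Dbp genes. The PER and CRY proteins then inhibit this pair, while the nuclear receptors REV-ERB alpha and beta, encoded by Nr1d1 and Nr1d2, repress Arntl through ROR elements. DBP acts through D-boxes and carries the rhythm to output genes. In cultured cells the clocks of single cells drift apart unless a shared stimulus, such as fresh serum, sets them together.

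Total counts per library ranged from 14742855 to 38194800, and the members had from 259 to 4136 counts in a library. Levels are given as CPM, the counts per 1000000 counts of a library, on edgeR's TMM scale, which corrects for differences in composition between libraries. All 12 astrocyte markers examined were detected, with a summed level of 2590 to 3690 CPM per library. Markers of other cells were present too, with 4610 to 7840 CPM at 6 h and 3520 to 6820 CPM at 24 h for the sum of 10 fibroblast and vessel markers. Most of that sum was Acta2 (median 4210 CPM), followed by Col1a1 (408 CPM) and Col1a2 (242 CPM), while Lum, Dcn, Pecam1 and Cldn5 each had a median under 1 CPM. The summed level of 10 microglia markers was 195 to 229 CPM in the replicate 2 library of each condition and 1250 to 2010 CPM in the libraries of replicates 1, 3 and 4. The share of counts taken by Gm42418, a gene that overlaps ribosomal RNA sequence, was between 0.364% and 10.4%. Since RNA of whole cultures was measured, fewer cells of a type and less RNA per cell cannot be told apart.

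Between 6 h and 24 h the clock genes changed in opposite directions. Arntl, the activator, fell by 1.72 to 1.85 on the log2 scale at every dose, and Cry1, a repressor, fell at 0 and 0.1 Gy. The repressors Per2 and Per3 rose at 0 and 0.1 Gy, Nr1d2 rose at 0 Gy, and the output gene Dbp rose at 0.1 and 2 Gy. Clock, Per1, Cry2 and Nr1d1 passed the test at no dose. A gene is called here when its p from the quasi-likelihood test of edgeR, adjusted over all genes tested by the method of Benjamini and Hochberg, is under 0.05. A rise or a fall means a called change in the fit without a term for the replicate number. With that term, Cry2 and Nr1d2 were also called higher at 0.1 Gy. At 2 Gy it added Per2, higher, and Cry1, lower. Without it, the change of no member was called different between irradiated and mock-irradiated cells.

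At 0 Gy, 5 of the 10 members were called, 3 higher and 2 lower at 24 h. Among all 15887 genes tested, 6.7% were called, 3.24% higher and 3.46% lower. The libraries of 6 h and 24 h did not overlap for 5 members, as for 15.3% of all genes. At 0.1 Gy again 5 members were called, 3 higher and 2 lower, against 9.9% of 16250 genes, of which 4.57% were higher and 5.33% lower, and 6 members did not overlap, against 19.0% of all genes. At 2 Gy, 2 members were called, 1 in each direction, against 6.95% of 16002 genes, of which 3.02% were higher and 3.92% lower, and 4 members did not overlap, against 18.1%. The median absolute log2 fold change of the members was 0.763, 0.615 and 0.507 at 0, 0.1 and 2 Gy, and that of all genes tested was 0.313, 0.276 and 0.299. Libraries of the same replicate number deviated together at 0.1 and 2 Gy, and 7 members were called at 0.1 Gy in the fit with a term for that number (the replicate block), where 25.7% of all genes were. At 2 Gy 4 members were called with the block, and 19.2% of all genes. With a correction for GC content and length added to the block, 8 members were called at each of these doses, where 36.1% of all genes were called at 0.1 Gy and 29.3% at 2 Gy. Beyond the calls of the block alone, these were Per1 at 0.1 Gy (adjusted p = 0.0497) and Per3 (0.0227), Cry2 (0.0138), Nr1d1 (0.0366) and Nr1d2 (0.0327) at 2 Gy, while Per1 and Nr1d1 had the negative sign they had without it. Arntl was the one member called at all 3 doses, 6 members were called at 1 dose or more, and 9 had the same sign at all doses, Clock being the exception. The shares of all genes for which these hold over the 3 doses were not counted, so that these numbers describe the members only.

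**Figure D1:**
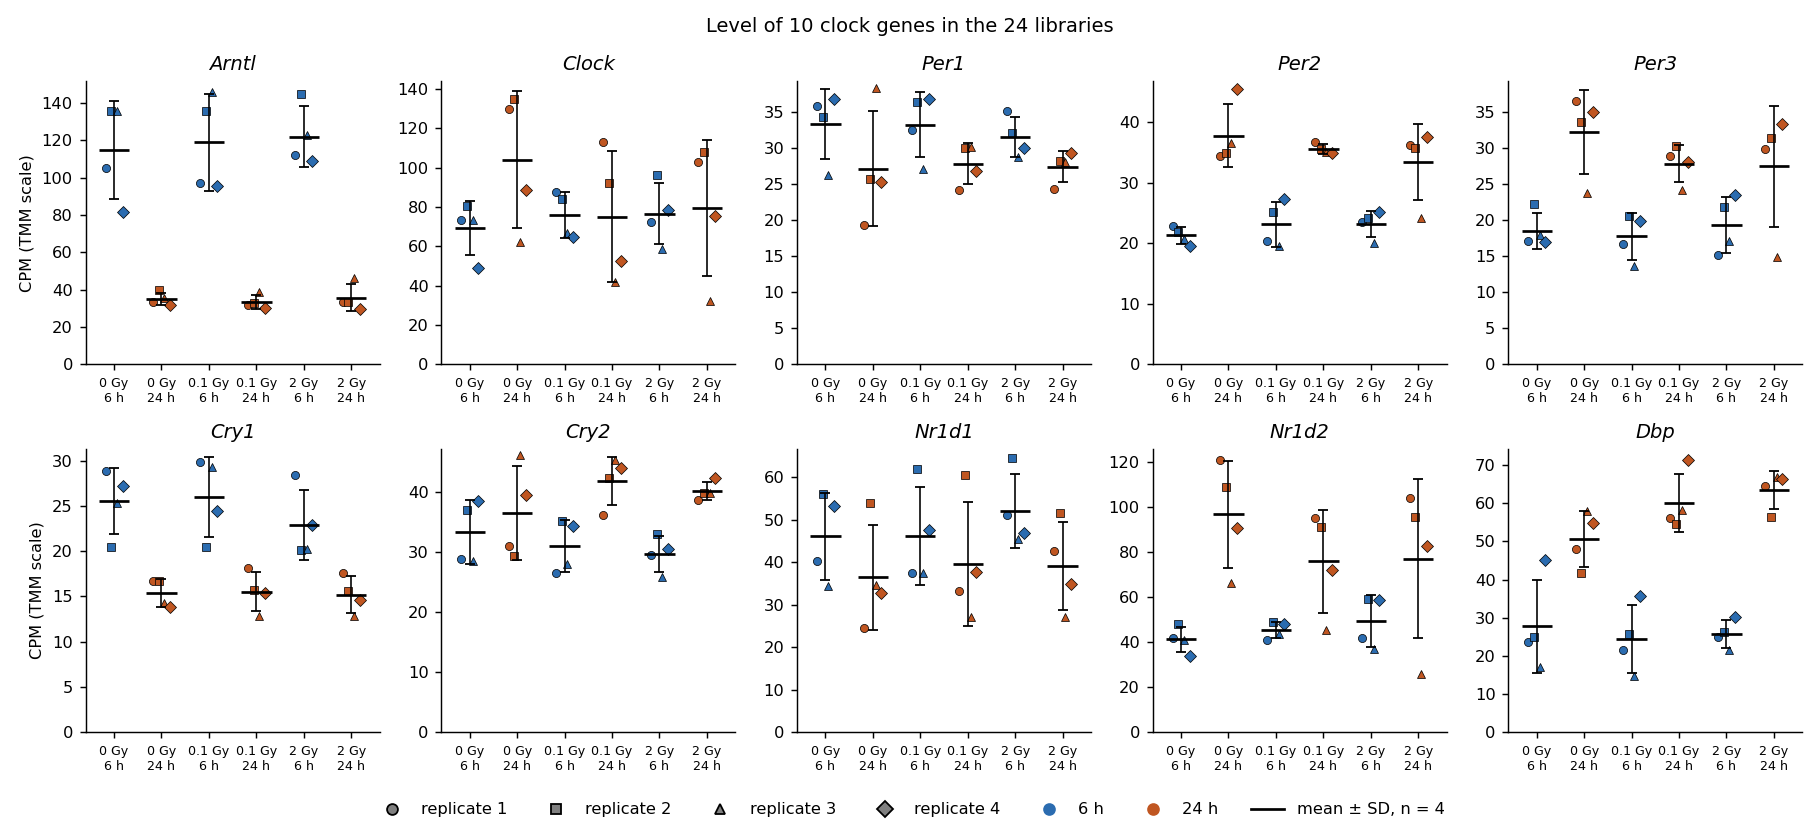
Level of the 10 clock genes in CPM (vertical axes, linear and starting at 0) in the 6 conditions, with 1 point per library, a marker shape per replicate number, and the mean ± SD of 4 libraries. The 12 libraries of 6 h lie above the 12 of 24 h for Arntl. In the 2 Gy 24 h group the replicate 3 library (triangle) lies lowest for Clock, Per2, Per3, Cry1, Nr1d1 and Nr1d2.

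**Figure D2:**
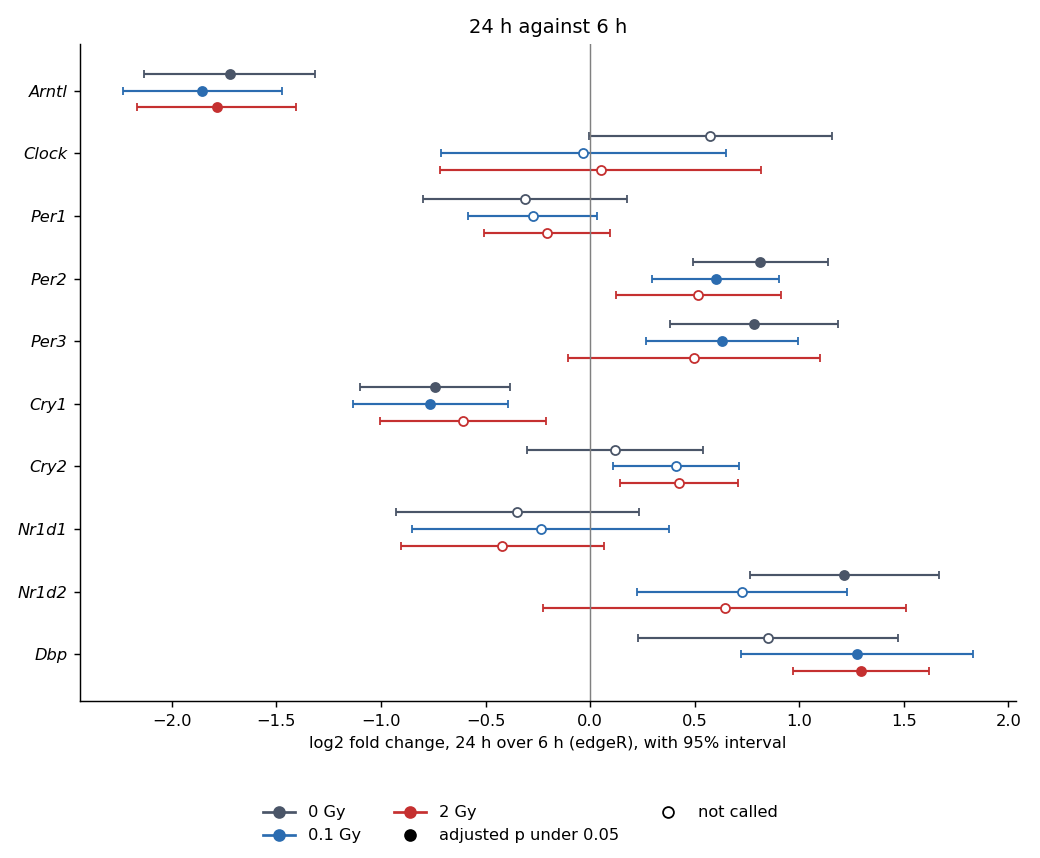
Log2 fold change of 24 h over 6 h for the 10 clock genes at 0, 0.1 and 2 Gy, with 95% intervals from edgeR (filled points, adjusted p under 0.05). Arntl lies between -1.72 and -1.85 at every dose, and the intervals of the 3 doses overlap for each gene.

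The promoters of 9 members are in the RefSeq table used here (GRCm38.p6), with 13 start sites in all, each covering 250 bases before to 50 bases after the start. They were searched on both strands for the E-box (CACGTG), the E'-box (CACGTT), the D-box (TTATGTAA) and the ROR element (TAGGTCA), as letters without mismatch. The promoters of 3 members whose levels changed are shown, since each holds one or more of these motifs. They are the second start site of Arntl (chr7:113207261-113207560, plus strand), Per3 (chr4:151044616-151044915, minus strand) and Cry1 (chr10:85185005-85185304, minus strand). They are written 5′ to 3′ in the direction of the gene, and the capitals mark the motifs.
Arntl: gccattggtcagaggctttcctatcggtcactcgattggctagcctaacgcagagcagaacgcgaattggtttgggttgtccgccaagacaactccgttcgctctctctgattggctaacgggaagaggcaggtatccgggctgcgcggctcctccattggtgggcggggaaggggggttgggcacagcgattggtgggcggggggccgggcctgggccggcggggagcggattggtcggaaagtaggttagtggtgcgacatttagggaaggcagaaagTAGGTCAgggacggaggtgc
Per3: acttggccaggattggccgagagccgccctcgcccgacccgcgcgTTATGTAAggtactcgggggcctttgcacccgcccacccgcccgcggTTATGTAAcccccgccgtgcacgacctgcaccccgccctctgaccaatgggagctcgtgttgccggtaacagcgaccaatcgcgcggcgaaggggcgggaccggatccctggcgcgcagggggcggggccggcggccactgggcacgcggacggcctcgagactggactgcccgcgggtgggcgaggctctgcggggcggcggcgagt
Cry1: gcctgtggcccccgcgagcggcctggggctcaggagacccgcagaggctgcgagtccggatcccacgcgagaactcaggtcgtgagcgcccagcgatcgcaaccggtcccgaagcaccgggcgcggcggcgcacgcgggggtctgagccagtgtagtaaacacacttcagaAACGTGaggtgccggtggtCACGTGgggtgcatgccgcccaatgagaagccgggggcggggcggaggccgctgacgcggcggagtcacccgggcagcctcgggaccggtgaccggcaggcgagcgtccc
The Arntl promoter holds a ROR element that starts 31 bases after the start site, the kind of sequence at which REV-ERB proteins act. Per3 holds a pair of D-boxes, 205 and 158 bases before the start site. Cry1 holds an E-box 60 bases before its start site and an E'-box on the opposite strand 79 bases before it. Of the promoters not printed, Per1 has an E-box 166 bases before its first start site, and Cry2 and Nr1d1 each have an E'-box on the opposite strand, 166 and 28 bases before the start site. No match was found in these windows of Clock, Nr1d2 and Dbp. Among all 32851 promoters of the table, 7.15% hold the E-box, 4.68% the E'-box, 0.938% the D-box and 2.61% the ROR element. A match describes the sequence and does not show that a factor binds there.

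Arntl (ENSMUSG00000055116, GRCm38 chromosome 7, 113207465 to 113314126) encodes BMAL1, the partner of CLOCK. In mock-irradiated cells its level was 105, 136, 136 and 81.8 CPM at 6 h and 33.4, 39.6, 35.4 and 31.7 CPM at 24 h. Cells given 0.1 Gy had 97.2, 136, 146 and 95.6 CPM at 6 h and 31.5, 32.9, 38.7 and 30.1 CPM at 24 h. Cells given 2 Gy had 112, 145, 123 and 109 CPM at 6 h and 33.4, 33.6, 46.3 and 29.8 CPM at 24 h. Every library of 6 h lay above every library of 24 h, across doses as well as within each, and the replicate 4 library was the lowest of its condition in all 6 conditions. The means were 115 ± 26.4, 119 ± 26.1 and 122 ± 16.4 CPM (SD, n = 4) at 6 h for 0, 0.1 and 2 Gy, against 35 ± 3.39, 33.3 ± 3.76 and 35.7 ± 7.23 CPM at 24 h. Arntl was thus 3.3, 3.61 and 3.45 times lower at 24 h. On the log2 scale the changes were -1.72 ± 0.182, -1.85 ± 0.169 and -1.79 ± 0.168 (SE), with adjusted p = 0.00351, 0.00167 and 0.00318 in edgeR's quasi-likelihood test. These calls remained without any single library, at adjusted p of up to 0.029. The exact two-sided permutation test gave p = 0.0286 at each dose, the smallest that 4 against 4 libraries allow.

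Clock encodes the histone acetyltransferase that pairs with BMAL1, and its level varied widely between libraries of one condition at 24 h. In mock-irradiated cells it was 73.6, 80.3, 73.4 and 49.0 CPM at 6 h and 130, 135, 62.3 and 88.4 CPM at 24 h. The 24 h values at 0.1 Gy were 113, 92.3, 41.7 and 52.7 CPM and those at 2 Gy 103, 108, 32.3 and 75.3 CPM. The means were 69.1 ± 13.8, 75.8 ± 11.8 and 76.5 ± 15.6 CPM (SD, n = 4) at 6 h for 0, 0.1 and 2 Gy, and 104 ± 34.7, 74.9 ± 33.3 and 79.5 ± 34.6 CPM at 24 h. The replicate 3 library was the lowest of the 4 at 24 h at every dose, and the 6 h and 24 h libraries overlapped at every dose. The log2 fold changes from 6 h to 24 h were 0.57 (95% interval -0.01 to 1.16), -0.03 (-0.71 to 0.65) and 0.05 (-0.72 to 0.82) at 0, 0.1 and 2 Gy, none of them called (edgeR, adjusted p = 0.208, 0.964 and 0.951). Without the 24 h replicate 3 library, Clock was called at 0 Gy, with a log2 fold change of 0.76 and an adjusted p of 0.0381. With the GC content and length correction on all 8 libraries, its log2 fold change at 0 Gy was 0.15 (adjusted p = 0.386). Without the 24 h replicate 3 library of 2 Gy, the value at 2 Gy was 0.31 (adjusted p = 0.321). Without the 24 h replicate 3 library of 0.1 Gy, the value at 0.1 Gy turned to 0.17 (adjusted p = 0.749).

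Per2 and Per3 encode PERIOD proteins, which inhibit the BMAL1 and CLOCK pair. Per2 had 22.9, 21.9, 20.7 and 19.6 CPM at 6 h in mock-irradiated cells and 34.4, 34.9, 36.5 and 45.5 CPM at 24 h. At 0.1 Gy it had 20.4, 25.1, 19.6 and 27.3 CPM at 6 h and 36.8, 35.5, 35.1 and 34.9 CPM at 24 h. The 2 groups did not overlap at either dose, and the libraries of 24 h at 0.1 Gy lay close together. Per2 was 1.76-fold higher at 24 h at 0 Gy (log2 fold change 0.81 ± 0.144, SE, edgeR adjusted p = 0.0152) and 1.52-fold higher at 0.1 Gy (0.60 ± 0.134, adjusted p = 0.0265). At 2 Gy it had 23.5, 24.1, 20.1 and 25.2 CPM at 6 h and 36.2, 35.8, 24.1 and 37.6 CPM at 24 h. Here the replicate 3 library at 24 h lay within the range of the 6 h libraries, while the other 3 lay above it. The change at 2 Gy was 0.52 ± 0.175 and was not called (adjusted p = 0.113). It was called with the replicate block (0.50, adjusted p = 0.0341) and without the 24 h replicate 3 library (0.65, adjusted p = 0.0159). The call at 0 Gy was lost without the 6 h libraries of replicate 1 or 3 or the 24 h library of replicate 4, at adjusted p of 0.05001 to 0.0574. At 0.1 Gy it was lost without replicate 1 or 3 of 6 h or replicate 3 or 4 of 24 h, at adjusted p of 0.059 to 0.0848.

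For Per3 the levels in mock-irradiated cells were 17.1, 22.2, 17.9 and 16.9 CPM at 6 h and 36.5, 33.6, 23.7 and 35 CPM at 24 h. At 0.1 Gy they were 16.7, 20.6, 13.6 and 19.9 CPM at 6 h and 28.9, 30.2, 24.2 and 28.0 CPM at 24 h. The groups were apart at both doses, with the replicate 3 library nearest to the 6 h values each time. Per3 rose by 0.78 ± 0.179 (SE) on the log2 scale at 0 Gy (edgeR adjusted p = 0.0346) and by 0.63 ± 0.162 at 0.1 Gy (adjusted p = 0.0413). At 2 Gy the levels were 15.2, 21.8, 17.1 and 23.4 CPM at 6 h and 29.8, 31.4, 14.9 and 33.3 CPM at 24 h. In the replicate 3 library of 24 h Per3 was lower than in any 6 h library at that dose. The change at 2 Gy was 0.50 (95% interval -0.10 to 1.10, adjusted p = 0.308), and without that library it was 0.70 and called (adjusted p = 0.0358). The Per3 calls were close to the threshold. At 0 Gy the call remained without replicate 2 of 6 h or replicate 3 of 24 h and was lost without any other library, at adjusted p of 0.0554 to 0.119. At 0.1 Gy it remained without replicate 2 of 6 h and was lost without any other, at adjusted p of 0.0576 to 0.112. The annotated span of Camta1, on the same strand, covers Per3, so that some reads may not be assigned to one of them with certainty.

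Per1, the third PERIOD gene, had a negative sign at all doses and was called at none. Its means at 6 h were 33.3 ± 4.79, 33.2 ± 4.53 and 31.5 ± 2.76 CPM (SD, n = 4) for 0, 0.1 and 2 Gy, and at 24 h 27.1 ± 7.97, 27.8 ± 2.82 and 27.4 ± 2.2 CPM. The groups overlapped at each dose. In the mock-irradiated 24 h group Per1 ranged from 19.3 CPM in replicate 1 to 38.3 CPM in replicate 3. On the log2 scale the changes were -0.31 (95% interval -0.80 to 0.17), -0.28 (-0.58 to 0.03) and -0.21 (-0.51 to 0.09).

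Cry1 and Cry2 encode cryptochromes, repressors that bind the BMAL1 and CLOCK pair together with PER. Cry1 had 28.8, 20.4, 25.3 and 27.2 CPM at 6 h in mock-irradiated cells and 16.7, 16.7, 14.3 and 13.8 CPM at 24 h. Cells given 0.1 Gy had 29.8, 20.5, 29.3 and 24.4 CPM at 6 h and 18.1, 15.7, 12.8 and 15.4 CPM at 24 h. Cells given 2 Gy had 28.4, 20.1, 20.2 and 22.9 CPM at 6 h and 17.6, 15.6, 12.8 and 14.6 CPM at 24 h. Like Arntl, Cry1 was lower in every 24 h library than in every 6 h library, and these were the 2 members whose groups were apart at all 3 doses. Of all genes, 15.3%, 19.0% and 18.1% were apart at 0, 0.1 and 2 Gy, and the share apart at all 3 was not counted. The level at 24 h was 1.67, 1.7 and 1.52 times lower than at 6 h at 0, 0.1 and 2 Gy. Its log2 fold changes were -0.74 ± 0.159, -0.76 ± 0.164 and -0.61 ± 0.177 (SE), with adjusted p = 0.0277, 0.0230 and 0.0729 in edgeR's quasi-likelihood test, so that the first 2 were called. With the replicate block the value at 2 Gy was called as well (-0.60, adjusted p = 0.0201). The call at 0 Gy was lost without replicate 1, 3 or 4 of 6 h or replicate 1 or 4 of 24 h (adjusted p of 0.0665 to 0.123), and that at 0.1 Gy without replicate 1 or 3 of 6 h or replicate 3 or 4 of 24 h (0.059 to 0.087).

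Cry2 differed from Cry1 in sign. Its means were 33.3 ± 5.32, 31.1 ± 4.33 and 29.7 ± 2.92 CPM (SD, n = 4) at 6 h and 36.5 ± 7.83, 41.9 ± 3.99 and 40.2 ± 1.52 CPM at 24 h, for 0, 0.1 and 2 Gy. At 0 Gy the groups overlapped, and at 0.1 and 2 Gy each 24 h library was above each 6 h library. The log2 fold changes were 0.12 (95% interval -0.30 to 0.54), 0.41 (0.11 to 0.71) and 0.42 (0.14 to 0.71), with edgeR adjusted p = 0.744, 0.0871 and 0.0769. With the replicate block Cry2 was called at 0.1 Gy (0.42, adjusted p = 0.0243) and had an adjusted p of 0.05003 at 2 Gy. At 2 Gy Cry2 was called with DESeq2 (adjusted p = 0.0196) and with the GC content and length correction (edgeR adjusted p = 0.0341). With all 24 libraries in one edgeR fit it was called there too (0.0461). At 0.1 Gy the same 3 fits gave adjusted p = 0.0532, 0.0419 and 0.0517. Without the 24 h replicate 3 library Cry2 was called at 2 Gy (0.44, adjusted p = 0.0467).

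Nr1d2 and Nr1d1 encode the REV-ERB receptors, repressors of Arntl. Nr1d2 had 41.9, 47.8, 41.1 and 34.0 CPM at 6 h in mock-irradiated cells and 121, 109, 66.1 and 90.5 CPM at 24 h. All 24 h libraries were above all 6 h libraries at this dose. Nr1d2 was 2.32-fold higher at 24 h (log2 fold change 1.22 ± 0.201, SE, edgeR adjusted p = 0.0125). The adjusted p was 0.0536 without the 6 h replicate 1 library. At 0.1 Gy it had 41.0, 48.9, 43.7 and 48.1 CPM at 6 h and 95.3, 91.2, 45.3 and 71.8 CPM at 24 h. At 2 Gy it had 41.7, 59.3, 37.0 and 58.7 CPM at 6 h and 104, 95.6, 25.7 and 82.8 CPM at 24 h. At both doses the replicate 3 library of 24 h lay low, within the 6 h range at 0.1 Gy and under all 6 h libraries at 2 Gy. The log2 fold changes were 0.72 (95% interval 0.22 to 1.23, adjusted p = 0.0739) and 0.64 (-0.22 to 1.51, adjusted p = 0.363). Without the 24 h replicate 3 library of the dose, Nr1d2 was called at both, with 0.91 at 0.1 Gy (adjusted p = 0.0186) and 0.94 at 2 Gy (adjusted p = 0.0229). With the replicate block it was called at 0.1 Gy (0.67, adjusted p = 0.0173) and not at 2 Gy (0.50, adjusted p = 0.199).

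Nr1d1 had a negative sign at each dose, the opposite of Nr1d2, and was called at none. Its means were 46.1 ± 10.3, 46.2 ± 11.6 and 52.1 ± 8.76 CPM (SD, n = 4) at 6 h and 36.5 ± 12.4, 39.7 ± 14.6 and 39.1 ± 10.4 CPM at 24 h. The replicate 2 library held the highest Nr1d1 level of its condition in all 6 conditions, between 51.6 and 64.7 CPM. These are also the libraries with the low sum of microglia markers, and the part of that difference in the Nr1d1 level was not tested. From 6 h to 24 h the log2 fold changes of Nr1d1 were -0.35 (95% interval -0.93 to 0.23), -0.24 (-0.85 to 0.38) and -0.42 (-0.91 to 0.06). Leaving out 1 library moved them over -0.58 to -0.19, -0.53 to -0.04 and -0.59 to -0.28, the lowest each time without replicate 2 of 24 h. The highest were without replicate 1 of 24 h at 0 Gy, replicate 2 of 6 h at 0.1 Gy and replicate 3 of 24 h at 2 Gy. With the GC content and length correction the value at 0 Gy was -0.05 (edgeR adjusted p = 0.939). Nr1d1 overlaps the end of Thra on the opposite strand over 1075 bases. Whether the counting used strand is not given in the sources used here, so that reads of this stretch cannot be told apart.

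Dbp encodes an activator that binds D-boxes, and it is itself a classical target of the BMAL1 and CLOCK pair. Its level in mock-irradiated cells was 23.5, 25.0, 17.2 and 45.2 CPM at 6 h and 47.9, 41.8, 58.0 and 54.7 CPM at 24 h. Cells given 0.1 Gy had 21.6, 25.6, 14.8 and 35.8 CPM at 6 h and 56.1, 54.6, 58.3 and 71.4 CPM at 24 h. At 2 Gy it was 24.9, 26.2, 21.4 and 30.3 CPM at 6 h and 64.5, 56.3, 67.0 and 66.4 CPM at 24 h. The groups were well apart at 0.1 and 2 Gy, and at 0 Gy the replicate 4 library of 6 h lay among the 24 h libraries. Dbp was 2.42-fold higher at 24 h at 0.1 Gy (log2 fold change 1.28 ± 0.245, SE, edgeR adjusted p = 0.0158) and 2.45-fold higher at 2 Gy (1.30 ± 0.144, adjusted p = 0.00378). At 0 Gy the change was 0.85 ± 0.277 and not called (adjusted p = 0.0981), but it was called with DESeq2 (adjusted p = 0.0387), with all 24 libraries in one edgeR fit (0.0191) and with the GC content and length correction (log2 fold change 1.14, adjusted p = 0.0158). Without the 6 h replicate 4 library it was 1.19 and called (adjusted p = 0.0227). The call at 2 Gy remained without any single library, and that at 0.1 Gy was lost without replicate 1 of 6 h (adjusted p = 0.0584) or replicate 4 of 24 h (0.0526). Dbp overlaps Sphk2 on the opposite strand over 737 bases, where reads cannot be told apart without strand.

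For Arntl, Cry1, Per1 and Nr1d1 the means of the 3 groups of 6 h were above those of the 3 groups of 24 h, and for Per2, Per3, Cry2, Nr1d2 and Dbp they were below, while the order was mixed for Clock. Within a time, neighbours in this order differed by less than the larger of their SDs, except for Dbp at 24 h, with 60.1 ± 7.68 CPM (SD, n = 4) at 0.1 Gy and 50.6 ± 7.25 CPM at 0 Gy. That difference was 0.24 on the log2 scale (95% interval -0.10 to 0.57) and was not called (edgeR adjusted p = 0.944).

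Levels of different genes can be compared only per length of transcript. Per kilobase of exon, Arntl (15.2 ± 3.51 CPM per kilobase, SD, n = 4) and Nr1d1 (15.0 ± 3.36) had the highest means among the members at 6 h in mock-irradiated cells, and Per3 (1.93 ± 0.261) the lowest. Arntl and Nr1d1 differed by less than their spread. At 24 h the highest were Nr1d2 (19.3 ± 4.79) and Dbp (16.9 ± 2.42), followed by Nr1d1 (11.9 ± 4.02), and the spreads of these neighbours overlapped. Arntl had dropped to 4.65 ± 0.45 CPM per kilobase, close to Cry1 (4.6 ± 0.459) and Per1 (4.82 ± 1.42), with Per3 (3.35 ± 0.606) still the lowest.

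In the 2 Gy 24 h group, 1 library decided several of these results. Its replicate 3 library deviated from the mean of its group by -1.16 for Clock, -1.40 for Nr1d2, -0.80 for Per3 and -0.45 for Per2 on the log2 CPM scale. Nr1d1 deviated by -0.48 and Cry1 by -0.23, while Arntl deviated upward by 0.39, and Dbp by 0.08. The other replicate 3 libraries of 24 h deviated downward for Clock (-0.67 and -0.73 at 0 and 0.1 Gy) and Nr1d2 (-0.51 and -0.69) too. Across all genes, the deviation of these 3 libraries from their group means correlated with the GC content of the gene, with r = 0.521, 0.333 and 0.338 at 0, 0.1 and 2 Gy. The transcripts of Clock have a GC content of 41.4% (percentile 6.5 of the genes tested) and those of Nr1d2 45.4% (percentile 21.5). Per3 (52.3%, percentile 59.9), Per2 (56.0%, percentile 80.2) and Nr1d1 (56.4%, percentile 82.5) lie higher. Cry1 is at percentile 34.4, Arntl at 40.1 and Dbp at 84. The part of this trend in the deviations was not tested. Leaving out the 2 Gy 24 h replicate 3 library, 6 members were called between 24 h and 6 h at 2 Gy, against 11.4% of 16330 genes. They were Arntl (-1.93), Per2, Per3, Cry2, Nr1d2 and Dbp (1.28).

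**Figure D3:**
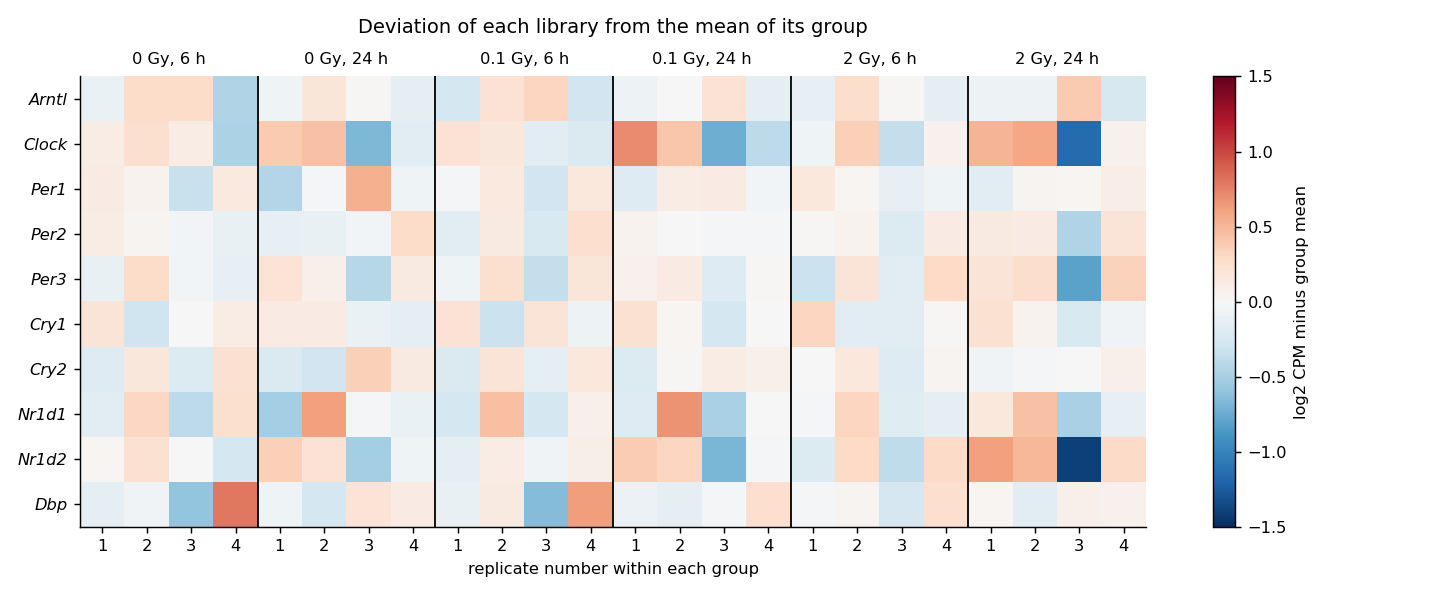
Deviation of each of the 24 libraries from the mean of its condition for the 10 clock genes (colour, log2 CPM). Replicate 3 of 2 Gy at 24 h is the most deviating column, with -1.16 for Clock and -1.40 for Nr1d2.

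The effect of X-rays on the clock genes was compared with mock irradiation at each time. No member was called in any of the 4 comparisons with edgeR, DESeq2 or limma voom. Of all genes tested, edgeR called 0% in each of these comparisons and limma voom none. DESeq2 called 103 genes for 2 Gy against 0 Gy at 24 h and 1 gene at 6 h, and none for 0.1 Gy. With all 24 libraries in one edgeR fit, 108 genes were called for 2 Gy at 24 h and none in the other 3 comparisons. At an unadjusted p under 0.05, 0 members stood in each comparison, beside 24 and 215 of all genes at 6 h for 0.1 and 2 Gy, and 241 and 570 at 24 h. At 6 h the log2 fold changes of the members lay between -0.18 and 0.14 at 0.1 Gy and between -0.16 and 0.25 at 2 Gy. At 24 h they lay between -0.48 and 0.24 at 0.1 Gy and between -0.38 and 0.33 at 2 Gy. For Arntl the intervals were -0.42 to 0.51 and -0.29 to 0.48 at 6 h and -0.37 to 0.20 and -0.36 to 0.42 at 24 h, for 0.1 and 2 Gy, so that a change by more than about these sizes would lie outside them. Both doses are compared with the same mock-irradiated libraries at each time. At 24 h the summed level of 8 proliferation genes was 232 to 282 CPM at 2 Gy and 452 to 539 CPM at 0 Gy, and the part of this difference in the clock genes was not tested.

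With the replicate block, which the deviations of same-numbered libraries called for in the 4 comparisons of dose, a few members passed the test at 24 h. Clock (-0.53, edgeR adjusted p = 0.0262) and Nr1d2 (-0.38, adjusted p = 0.0322) were lower at 0.1 Gy, where 6.84% of all genes were called. At 2 Gy Clock was lower (-0.45, adjusted p = 0.0461) and Dbp higher (0.34, adjusted p = 0.0391), with 13.2% of all genes called. The libraries of dose and mock irradiation overlapped for each of these genes. The log2 fold changes of all genes went with GC content in these 2 comparisons, with r = 0.589 at 0.1 Gy and 0.559 at 2 Gy over 16145 and 15855 genes. Clock (percentile 6.5) and Nr1d2 (21.5) have a lower GC content than most genes tested, and Dbp (56.7%, percentile 84) a higher one. Per1, Nr1d1 and Per2 (percentiles 92.5, 82.5 and 80.2) are also high. With the block they had 0.05, 0.10 and -0.09 at 0.1 Gy and 0.06, 0.12 and -0.19 at 2 Gy, none of them called. The part of GC content in these changes was not tested. With a correction for GC content and length added to the block, the values were -0.13 for Clock and -0.22 for Nr1d2 at 0.1 Gy (adjusted p = 0.398 and 0.164), and -0.03 for Clock and 0.11 for Dbp at 2 Gy (adjusted p = 0.896 and 0.417), so that none of these members was called. That fit still called 360 of 16183 genes at 0.1 Gy and 535 of 15892 at 2 Gy.

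**Figure D4:**
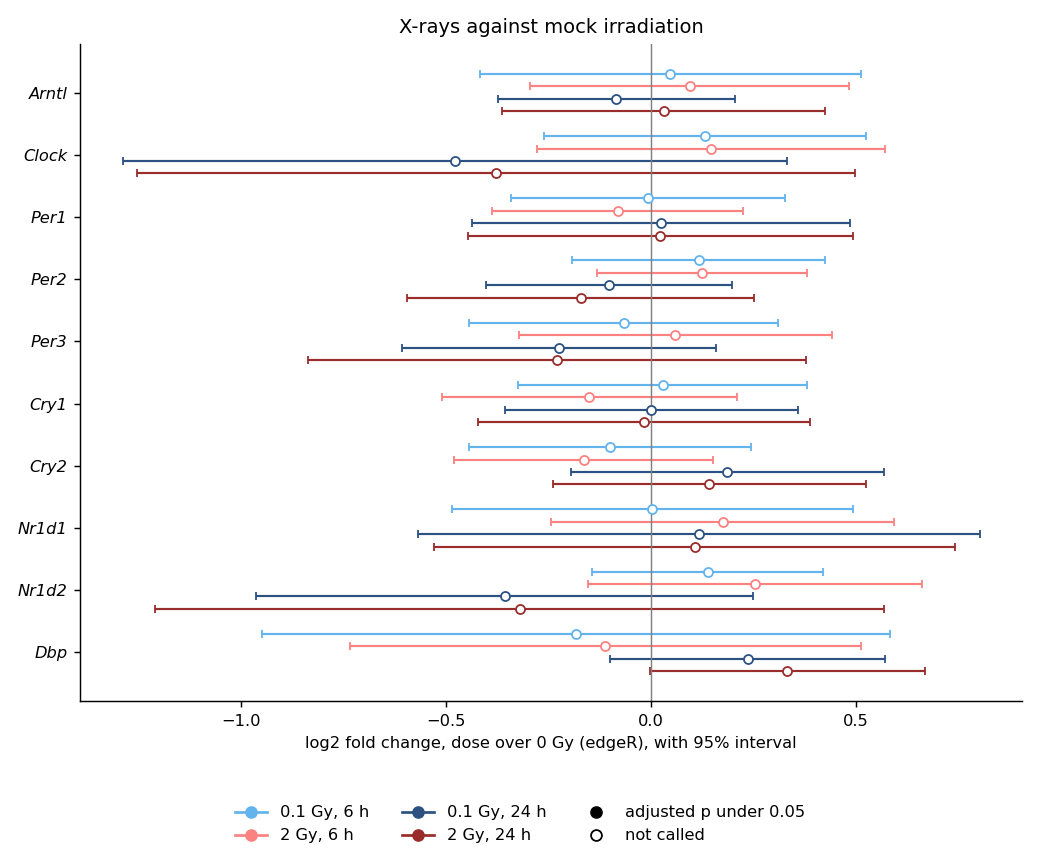
Log2 fold change of 0.1 or 2 Gy over 0 Gy at 6 h and 24 h for the 10 clock genes, with 95% intervals from edgeR. All points are open (not called), and each interval contains 0.

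Whether the change from 6 h to 24 h differed between irradiated and mock-irradiated cells was tested as an interaction. No member and no other gene was called by edgeR (0% of 17040 genes for 0.1 Gy and 0% of 16866 for 2 Gy), and 0 members had an unadjusted p under 0.05. DESeq2 and limma voom also called 0 members, with DESeq2 calling 4 of all genes for 2 Gy and limma voom none. The interaction of Arntl was -0.12 (95% interval -0.65 to 0.41) at 0.1 Gy and -0.05 (-0.56 to 0.46) at 2 Gy. Dbp had 0.43 (-0.40 to 1.25) and 0.45 (-0.24 to 1.14), Nr1d2 -0.49 (-1.14 to 0.16) and -0.56 (-1.54 to 0.41), and Per2 -0.21 (-0.58 to 0.17) and -0.29 (-0.74 to 0.16). Without the mock-irradiated replicate 4 library of 6 h, the values of Dbp were 0.09 and 0.11, and over all single libraries left out they ran from 0.09 to 0.67 and from 0.11 to 0.62. With the GC content and length correction Dbp was at 0.14 and 0.10, Nr1d2 at -0.27 and -0.32, Per2 at -0.33 and -0.46, and Arntl turned to 0.04 and 0.17, none of them called. The calls of Per2, Per3, Cry1, Nr1d2 and Dbp that were made at some doses and not at others are thus not shown to differ between doses. With the replicate block, Clock (-0.66, edgeR adjusted p = 0.0214), Nr1d2 (-0.52, adjusted p = 0.0284) and Dbp (0.41, adjusted p = 0.0498) were called for 0.1 Gy, where 8.87% of all genes were. With the GC content and length correction added, none of the 3 was, though 167 of 17040 genes were (adjusted p = 0.439, 0.221 and 0.507).

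A further 22 genes tied to the clock were counted as a list, and all were tested. At 0 Gy 4 were called, 1 higher and 3 lower, and at 0.1 and 2 Gy 3 each, all lower, that is 3 or 4 of 22 where 6.7%, 9.9% and 6.95% of all genes were called. The median log2 fold change was 0.02, 0.00 and 0.01 at the 3 doses, beside -0.02, -0.01 and 0.00 for all genes tested. With the replicate block 9 of the 22 were called at 0.1 Gy and 8 at 2 Gy, against 25.7% and 19.2% of all genes. Ciart, a repressor of the BMAL1 and CLOCK pair, had 11.3, 10.3, 9.92 and 12.2 CPM at 6 h in mock-irradiated cells and 3.01, 5.13, 3.71 and 3.03 CPM at 24 h. It was lower in every 24 h library, with log2 fold changes of -1.57 ± 0.23, -1.27 ± 0.211 and -1.45 ± 0.19 (SE, edgeR adjusted p = 0.0081, 0.00959 and 0.00629) at 0, 0.1 and 2 Gy. Bhlhe40 (DEC1), which competes for E-boxes, fell by 0.94 to 1.15 on the log2 scale (adjusted p = 0.0374, 0.0118 and 0.00934). Fbxl21, an F-box protein that acts on cryptochromes, fell by 1.32 to 1.81 (adjusted p = 0.0418, 0.00779 and 0.00943), from means of 6.4 ± 1.84 to 2.58 ± 0.775 CPM (SD, n = 4) at 0 Gy.

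Hlf, of the same family of D-box factors as Dbp, rose at 0 Gy, from 1.98 ± 0.39 to 5.58 ± 1.86 CPM (SD, n = 4; log2 fold change 1.48 ± 0.325, SE, edgeR adjusted p = 0.0305). At 0.1 and 2 Gy it had 0.92 and 1.15 (adjusted p = 0.106 and 0.104), and it was called at both with the replicate block (adjusted p = 0.0107 and 0.0143). Npas2, a close relative of Clock, stood at 2.47 ± 0.769 CPM at 6 h and 1.25 ± 0.204 CPM at 24 h at 0 Gy. Its log2 fold changes were -0.99, -1.10 and -1.18 (adjusted p = 0.0896, 0.081 and 0.0567), and it was called with the block at 0.1 Gy (adjusted p = 0.0124) and 2 Gy (0.0176). Also with the block, Arntl2, Tef, Nfil3 and Rorb were called at 0.1 Gy, and Arntl2 and Tef at 2 Gy. The calls of Ciart remained without any single library at each dose, and so did those of Bhlhe40 and Fbxl21 at 0.1 and 2 Gy. At 0 Gy, Bhlhe40 and Fbxl21 each remained called in 2 of the 8 fits without 1 library and Hlf in 3, with adjusted p of up to 0.139, 0.14 and 0.1. Bhlhe40 and Hlf remained without replicate 2 of 6 h and replicate 3 of 24 h, and Hlf also without replicate 2 of 24 h. Fbxl21 remained without replicate 4 of 6 h and replicate 3 of 24 h. In the comparisons of dose with mock irradiation and in the interactions, 0 of the 22 were called. With the block, Timeless (-0.59, adjusted p = 0.0209) and Tipin (-0.52, adjusted p = 0.035), which are partners at the replication fork, were lower at 2 Gy than at 0 Gy at 24 h, 2 of 22 genes where 13.2% of all genes were called. With the GC content and length correction added they were at -0.64 and -0.50 (adjusted p = 0.0322 and 0.0372).

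**Figure D5:**
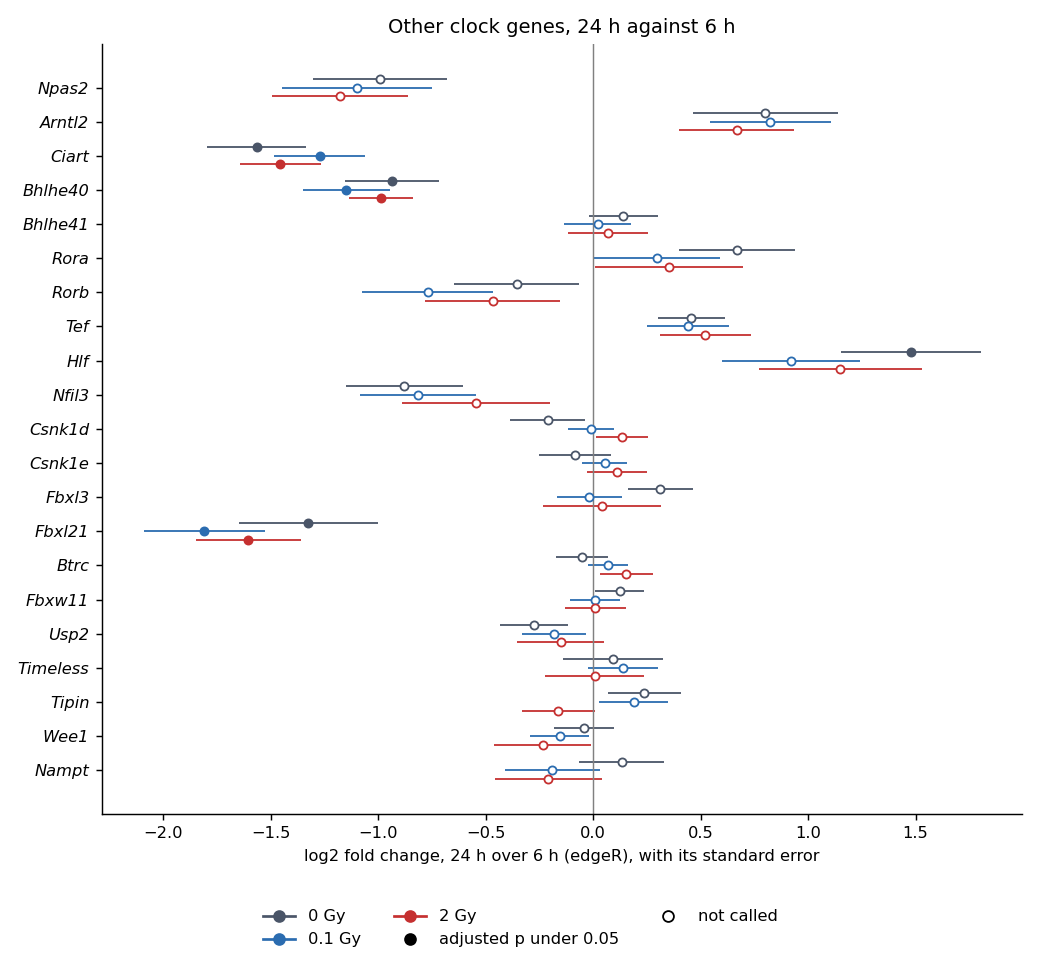
Log2 fold change of 24 h over 6 h with its standard error for further clock genes at 0, 0.1 and 2 Gy (filled points, adjusted p under 0.05). Ciart, Bhlhe40 and Fbxl21 are filled and negative at all doses, and Hlf is filled and positive at 0 Gy.

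The genes whose log2 CPM went most closely with that of a member over the 24 libraries were looked up among 17352 genes. For Arntl they were Noct (r = 0.974), Itga5 (0.97), Tgif1 (0.966), Kcnk3 (0.965) and Thsd1 (0.964), and the lowest r were those of Plscr2 (-0.974), Skida1 (-0.969) and Slc25a51 (-0.966). For Per2 they were Rnf216 (r = 0.952), Fnbp1 (0.948), Nbr1 (0.936), Depdc5 (0.933) and Ppip5k1 (0.932), and the lowest were Odc1 (-0.941), Yrdc (-0.937) and Nop2 (-0.937). Dbp was most like Gpr146 (r = 0.969), Pdk2 (0.965), Hdac11 (0.964), Klf15 (0.962) and Eps8l1 (0.959), and least like Uap1 (-0.966), Grpel2 (-0.965) and Il6 (-0.953). None of these is among the 10 members. All points share their libraries and their depth, and they fall into the groups of 6 h and 24 h. The r thus holds the difference between times as well as deviations within groups. Their parts were not separated, and r is given without a test.

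Genes of 2 other lists were also counted between 6 h and 24 h. Of 10 immediate early genes, which respond to serum and stress, 3 fell at 0 Gy and 2 each at 0.1 and 2 Gy, and 5 and 3 were called lower with the block at 0.1 and 2 Gy. Of all genes, 3.46%, 5.33% and 3.92% were called lower at 0, 0.1 and 2 Gy, and with the block 25.7% and 19.2% were called in either direction at 0.1 and 2 Gy. The median log2 fold change of the immediate early genes was -0.82, -0.51 and -0.30. The genes that fell were Fosl1 and Nr4a1 at each dose and Fosb at 0 Gy. Nr4a1, named after its values were seen, had -3.74, -3.64 and -3.49 (edgeR adjusted p = 0.00525, 0.00358 and 0.00882), and its calls remained without any single library. Fosb fell at 0 Gy from 6.7 ± 3.7 to 2.06 ± 0.545 CPM (SD, n = 4; log2 fold change -1.72, edgeR adjusted p = 0.0333), while Fos had -0.45 (adjusted p = 0.349). Of 8 proliferation genes, 0 were called at 0 Gy, 2 fell at 0.1 Gy and 5 at 2 Gy, with medians of -0.12, -0.48 and -0.81, and 4 and 6 were called lower with the block at 0.1 and 2 Gy, to be read against the same shares of all genes. They were Top2a and Ccnb1 at 0.1 Gy and these with Mki67, Ccna2 and Cdk1 at 2 Gy. Mki67 had 0.19, -0.57 and -1.27 (adjusted p = 0.75, 0.102 and 0.0235) and Top2a -0.15, -0.71 and -1.29 (adjusted p = 0.681, 0.0256 and 0.00629). The calls of Top2a and Ccna2 at 2 Gy remained without any single library. That of Fosl1 at 0.1 Gy was lost without replicate 3 of 6 h or of 24 h, and the other calls of both lists were each lost without replicate 1 of 6 h, among others (adjusted p of up to 0.157). Over the 3 doses, the summed level of the microglia markers was 212 to 2010 CPM at 6 h and 195 to 1760 CPM at 24 h, and that of the astrocyte markers 2890 to 3670 and 2590 to 3690 CPM, with 0 markers of either list at 0 in every library. For the change from 6 h to 24 h, the log2 fold changes of all genes had r = -0.317, 0.062 and 0.143 with GC content at 0, 0.1 and 2 Gy. The part of these groups, of the cell makeup and of the GC trend in the levels of the clock genes was not tested.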

How the data were processed

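Primary mouse astrocytes in 24 cultures were measured by poly(A) mRNA sequencing in a single run. The authors deposited one table of raw counts per library, with 49315 genes each and no normalization. The submitters' processing notes name the build mm10. The aligner, the counter and the use of strand are not given in the sources used here. Ensembl IDs were matched to symbols through GENCODE M21 (48970 named). The 36 pairs of libraries of one condition all differed by more than sampling noise.

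Genes were filtered with filterByExpr, scaled by TMM and tested with the quasi-likelihood test of edgeR 4.0.16 in R 4.3.3, on the 8 libraries of the groups compared (16 for an interaction). P-values were adjusted by Benjamini-Hochberg over all genes tested and called under 0.05. Standard errors are the log2 fold change over the square root of F, and intervals are 95%. DESeq2 1.42.0, limma 3.58.1, other filters and scalings, the replicate block and fits without each library were alternatives. The correction for GC content and length, a spline with 5 degrees of freedom, was added after seeing the data. The test was checked on simulated counts. Exact permutation tests used scipy 1.17.1 and are two-sided. CPM levels share one TMM scale over the 24 libraries.

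The deviations of same-numbered libraries from their group means correlated at r of 0.386 to 0.847 for 24 h against 6 h at 0.1 Gy, at 0.255 to 0.828 at 2 Gy, and at 0.539 or more in each comparison of dose. These were taken as paired, from the data and not from a label. At 0 Gy the lowest r was 0.0645, and the libraries were not taken as paired.

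The 10 genes, the lists and the comparisons were chosen with earlier results of these data known. Of the further clock genes, those called and the 3 with the largest absolute log2 fold change between times at each dose are named. Of the immediate early and proliferation lists, the first 2 of each are given with values. Nr4a1 was added after its values were seen. Of the likeness to Arntl, Per2 and Dbp, the 5 highest and 3 lowest r are given. The values of 1 gene of the further clock genes are not reported here.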

Additional observations from a re-analysis of the deposited data

Results flagged for a closer look

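One value among 60 sets of 4 libraries (10 genes in 6 conditions) stood far from the others of its condition. Chance gives about 1 in 20 such sets, so that 1 in 60 is no more than chance gives. It was Per2 in replicate 3 of 2 Gy at 24 h, with 24.1 CPM against 35.8 to 37.6 CPM in the other 3 libraries.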

How the results depend on the processing

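The calls of the members between 24 h and 6 h were recomputed in 216 settings, of which 182 kept the direction and the side of the threshold, 34 kept the direction only and 0 turned. The number of members called was 5, 5 and 2 at 0, 0.1 and 2 Gy. Asking also for a log2 fold change past 1 in size, it was 2 at 0 Gy (564 of 15887 genes) and 2 at 0.1 Gy (624 of 16250). At an adjusted p under 0.01 it was 1 at each of these doses, with 157 and 319 of all genes called. At 2 Gy it was 4 with DESeq2 (2120 of 30115 genes called), 4 with the replicate block (3072 of 16002) and 5 with all 24 libraries in one fit (2543 of 17353), against 1112 of 16002 genes in the reported test. With the GC content and length correction and the block it was 8 at 0.1 Gy and 8 at 2 Gy, where 36.1% and 29.3% of all genes were called. At 0 Gy, where the libraries share a number only, the block gave 6 (2428 of 15887 genes, against 1064 without it), and 2 of the 4 numbers correlated best with themselves. Between doses the block gave 2 members at 0.1 Gy and 2 at 2 Gy at 24 h and 3 for the interaction of 0.1 Gy and time, against 0 without it. Where the libraries were taken as paired, it changed no call of a member other than those given above. Leaving out 1 library gave 1 to 6 members at 0 Gy, 1 to 5 at 0.1 Gy and 2 to 6 at 2 Gy, while the calls over all genes moved from 170 to 2999, from 534 to 1890 and from 220 to 1855, so that the shares of all genes called depend on single libraries as well. With no filter on low counts, the calls of Cry1 at 0 Gy (adjusted p = 0.0527) and Per3 at 0.1 Gy (0.06) were lost.

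Some values near 0 changed sign, and the cause was not tested. Cry2 at 0 Gy was -0.0084 to 0.2291 on the log2 scale without 1 library. Clock at 0.1 Gy was 0.0476 with library size alone, 0.001 with the GC content and length correction and -0.2895 to 0.1736 without 1 library (0.0625, 0.0419, 0.1736 and 0.106 without 6 h replicate 1 or 2 or 24 h replicate 3 or 4). Clock at 2 Gy was -0.0796 with limma voom, -0.0671 with the replicate block and -0.1388 to 0.313 without 1 library (-0.0282, -0.0932 and -0.1388 without 6 h replicate 3 or 24 h replicate 1 or 2). With 4 libraries a group, an exact permutation test cannot go below p = 0.0286.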
